A study of Mus musculus with 8 samples.

Results

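The genes described here are 34 genes of cholesterol and fatty acid synthesis, chosen by name from known pathways. They are 7 enzymes of the mevalonate part, 11 enzymes from squalene to cholesterol, 6 genes of sterol sensing and transport, and 10 genes of fatty acid synthesis and its close neighbours. All 34 were listed once in both deposited tables, out of 28712 genes listed in either, and all 34 were among the 13951 genes with a mean of at least 10 counts per library that were tested. RNA was sequenced from 4T1 cells, a mouse triple-negative breast cancer line of wild-type genotype that was kept at 1% O2 per the labels. The groups used were sdAb#07.81 (24 h), sdAb-Con (48 h) and sdAb#07.81 (48 h), each with 2 libraries and each treated after confluence with 0.5 μg/mL of a purified single-domain antibody. sdAb#07.81 binds the stress protein NUPR1, sdAb-Con is the control antibody, and both carried a degradation tag and a cell-penetrating peptide. The remaining group, Con, was not analysed here. None of the groups used holds the control antibody at 24 h, so the hours of antibody exposure and the hours in culture cannot be told apart in the comparisons with sdAb#07.81 (24 h), and in sdAb-Con (48 h) against sdAb#07.81 (24 h) the antibody differed too.

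The mevalonate pathway joins acetyl-CoA units into isoprenoids, which are condensed to squalene and then closed and trimmed to cholesterol. Fatty acid synthesis starts from the same acetyl-CoA, which is carboxylated, built into palmitate, and then elongated and desaturated. Both pathways are controlled by the SREBP transcription factors, which are held in the endoplasmic reticulum with SCAP and INSIG proteins while sterols are plentiful and are cut to release an active factor when sterols fall. The factor NF-Y, which binds CCAAT boxes, is a known partner of SREBP at such promoters.

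The bases before the start sites of 4 genes that were lower in both 48 h groups are shown, since they stand for the mevalonate, fatty acid and SREBP genes described below. They are RefSeq promoters of build GRCm38.p6, each of 180 bases, written 5′ to 3′ in the direction of the gene and ending at the base before the start site. Capitals mark CCAAT on either strand (CCAAT or ATTGG) and the sterol element TCACNCCAC.
Hmgcs1 (chr13:119690171-119690350, + strand): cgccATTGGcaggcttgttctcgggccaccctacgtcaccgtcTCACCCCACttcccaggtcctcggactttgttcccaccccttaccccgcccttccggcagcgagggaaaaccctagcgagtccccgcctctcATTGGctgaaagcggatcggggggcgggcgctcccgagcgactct
Idi1 (chr13:8885426-8885605, + strand): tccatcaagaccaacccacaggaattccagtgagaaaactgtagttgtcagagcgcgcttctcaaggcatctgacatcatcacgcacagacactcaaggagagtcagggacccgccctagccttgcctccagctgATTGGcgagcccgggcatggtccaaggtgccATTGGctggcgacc
Fasn (chr11:120824548-120824727, - strand): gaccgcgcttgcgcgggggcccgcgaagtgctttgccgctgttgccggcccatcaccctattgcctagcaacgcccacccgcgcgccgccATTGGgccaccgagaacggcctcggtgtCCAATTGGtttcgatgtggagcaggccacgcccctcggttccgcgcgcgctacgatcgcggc
Srebf2 (chr15:82147089-82147268, + strand): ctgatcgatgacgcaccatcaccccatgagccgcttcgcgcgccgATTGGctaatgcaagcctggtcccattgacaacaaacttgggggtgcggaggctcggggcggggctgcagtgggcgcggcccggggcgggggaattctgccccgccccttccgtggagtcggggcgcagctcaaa

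The sterol element of *Hmgcs1* lay 137 to 129 bases before the start site, and its CCAAT boxes began 176 and 45 bases before it. The 50 bases after this start site were not found as 1 run in a GENCODE M21 transcript of *Hmgcs1*, as they were for the other 3 genes, so its positions hold for the RefSeq start only. *Idi1* carried boxes that began 45 and 14 bases before the start site. *Fasn* carried 3 matches, that from 62 to 58 bases before the start overlapping that from 59 to 55 on the other strand, and *Srebf2* carried 1 box at 135 bases. Of the 34 genes, 27 matched the promoter table by symbol, and *Fdft1*, *Scd2*, *Fdps*, *Sqle*, *Scd1*, *Stard4* and *Fads1* did not. In windows of 250 bases before to 50 bases after the start, CCAAT on either strand was present in 22 of 35 windows of these genes (62.9%) and in 37.4% of all 32851 windows. TCACNCCAC was present in 1 of the 35 windows, that of *Hmgcs1*, and in 1.24% of all windows. Only exact matches were searched, so sterol sites that differ from these letters were neither counted nor marked. The E-box CACGTG was present in 6 of the 35 (17.1%) and in 7.15% of all. CCAAT was found for 11 of the 16 matched genes that fell between 24 h and 48 h of sdAb#07.81, and for 10 of the other 11.

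Counts per library were recovered from the deposited means, which combine 4 libraries each. The recovered libraries held 15004724 to 17945063 reads. Levels are given as CPM, the normalised count scaled to a common library total of recovered reads, and libraries of a group are called first and second by read number, which carries no link between groups. The libraries of a group differed by more than sampling noise, with a mean chi-square per gene of 9.98 to 11.97 where noise alone gives about 1, so none was a duplicate. Nothing in the labels says that the libraries came from separate cultures, so the tests measure the spread between libraries, which may be technical. Epithelial markers were high, with *Epcam*, *Cdh1*, *Krt8*, *Krt18* and *Krt19* together at 2390 to 2890 CPM. All 5 leukocyte, 3 endothelial and 3 listed adipocyte markers were under 1 CPM in every library. The 5 fibroblast markers added up to 57.6 to 85.1 CPM, mostly *Pdgfra*, which was at 58.2 and 75.9 CPM in sdAb#07.81 (24 h) and at 37.1 to 39.8 in the 48 h libraries. The other 4 were lower in the second sdAb#07.81 (24 h) library than in the first, with *Col1a1* at 2.33 against 12, *Col1a2* at 0.465 against 9.83, *Dcn* at 0.175 against 2.91 and *Lum* at 0 against 2.12 CPM. The part of these markers in the results below was not tested. Without that library the 21 calls over time under sdAb#07.81 described below were kept, and in sdAb-Con (48 h) against sdAb#07.81 (24 h) *Pmvk*, *Tm7sf2* and *Fads1* lost their calls and *Ebp* (0.49) gained one. *Nupr1* RNA was at 94.7 and 130 CPM in sdAb#07.81 (24 h), 218 and 182 in sdAb-Con (48 h), and 178 and 178 in sdAb#07.81 (48 h), which did not separate the antibodies at 48 h (log2 fold change -0.17 ± 0.132 SE, adjusted p = 0.453). Its protein was not measured in these data.

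To ask how lipid synthesis RNA changed with time under sdAb#07.81, the 48 h libraries were compared with the 24 h libraries. Most of the pathway was lower at 48 h. In bulk RNA, fewer cells with a high level and less RNA per cell cannot be told apart. Of the 34 genes, 20 fell and 1 rose at an adjusted p under 0.05 (limma-voom, Benjamini-Hochberg over all tested genes), while 22.1% of all tested genes fell and 21.1% rose. On the log2 scale the 34 genes had a median change of -0.58, against -0.01 for all tested genes. Levels were also lower in sdAb-Con (48 h) relative to sdAb#07.81 (24 h), where 20 fell and 4 rose against a background of 26% lower and 25.3% higher, with a median of -0.53 against 0.00 for all genes. These comparisons share the 24 h libraries, so they do not repeat each other independently. Between the antibodies at 48 h, 1 gene was lower and 1 was higher among the 34, against 3.7% lower and 6.39% higher of all tested genes, and the median was -0.08 against -0.02. Over all genes these were 891 higher and 516 lower, which became 1196 and 324 with upper quartile scaling.

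**Figure D1:**
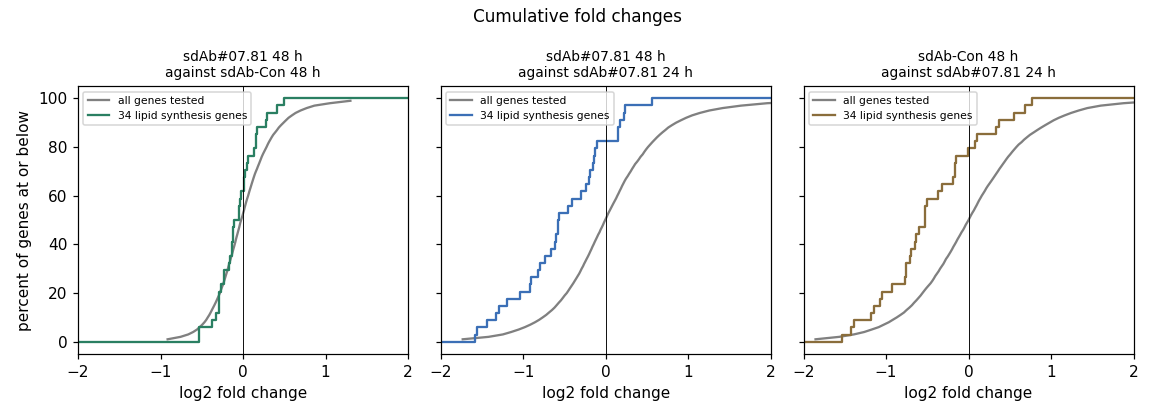
Cumulative percent of genes (y) at or below each log2 fold change (x) for the 34 lipid synthesis genes (coloured steps) and all 13951 tested genes (grey, percentiles 1 to 99), in each comparison. The coloured steps lie to the left of the grey curve in both comparisons with sdAb#07.81 (24 h), with medians of -0.58 and -0.53, and near it between the antibodies at 48 h, with a median of -0.08.

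Enzymes at the start and the end of the mevalonate part fell over time under sdAb#07.81, whereas the 3 between them did not pass the test. *Acat2* (ENSMUSG00000023832), which joins acetyl-CoA into acetoacetyl-CoA, was at 59.8 and 76.7 CPM in sdAb#07.81 (24 h), 34.7 and 30.8 in sdAb-Con (48 h), and 25.6 and 28.1 in sdAb#07.81 (48 h). Both 24 h libraries were above all 48 h libraries. Its log2 fold change from 24 h to 48 h of sdAb#07.81 was -1.34 ± 0.146 (SE, n = 2 libraries per group, limma adjusted p = 7e-07), so that the 48 h level was 39.6% of the 24 h level. *Idi1*, which converts the isoprenoid unit to its reactive isomer, was at 32.1 and 29.8 CPM at 24 h, 15.1 and 12.2 in sdAb-Con (48 h), and 12.6 and 12.6 in sdAb#07.81 (48 h). The 48 h groups of *Idi1* overlapped each other and lay far below the 24 h libraries (log2 fold change -1.30 ± 0.16, limma adjusted p = 3.2e-06). *Fdps*, which makes farnesyl diphosphate, was at 51.7 and 61.9 CPM at 24 h, 40.1 and 38.2 in sdAb-Con (48 h), and 25.1 and 36.2 in sdAb#07.81 (48 h). Its log2 fold change was -0.91 ± 0.156 from 24 h to 48 h of sdAb#07.81 and -0.53 ± 0.149 from sdAb#07.81 (24 h) to sdAb-Con (48 h), and both passed the test. *Hmgcs1*, the HMG-CoA synthase, was at 141 and 119 CPM at 24 h, 84.1 and 75.8 in sdAb-Con (48 h), and 105 and 90.4 in sdAb#07.81 (48 h). Its fall of 0.41 on the log2 scale (SE 0.121) passed the test (limma adjusted p = 0.0098), but not without the first sdAb#07.81 (24 h) library (-0.29) or the second sdAb#07.81 (48 h) library (-0.30).

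The genes that turn mevalonate into the isoprenoid unit did not pass the test between 24 h and 48 h of sdAb#07.81. The log2 fold changes were -0.16 for *Mvk*, 0.14 for *Pmvk* and 0.22 for *Mvd*, with 95% intervals of -0.55 to 0.22, -0.16 to 0.45 and -0.15 to 0.60. *Pmvk* and *Mvd* were higher in sdAb-Con (48 h) when set against sdAb#07.81 (24 h). *Mvd* was at 10.4 and 10.2 CPM at 24 h and at 13.9 and 16.4 in sdAb-Con (48 h), a log2 fold change of 0.55 ± 0.173 (limma adjusted p = 0.013). *Pmvk* went from 20.1 and 20.5 to 26.5 and 26.1 CPM, a log2 fold change of 0.37 ± 0.141 (limma adjusted p = 0.035). With a trend on transcript length, GC content and mean level of the gene removed from each library, neither was called (*Mvd* 0.23, *Pmvk* -0.03). *Pmvk* also missed the threshold with total count scaling, with upper quartile scaling, without a filter and without any one of the 4 libraries compared. *Mvd* missed it without the second sdAb-Con (48 h) library (0.43, adjusted p = 0.115).

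**Figure D2:**
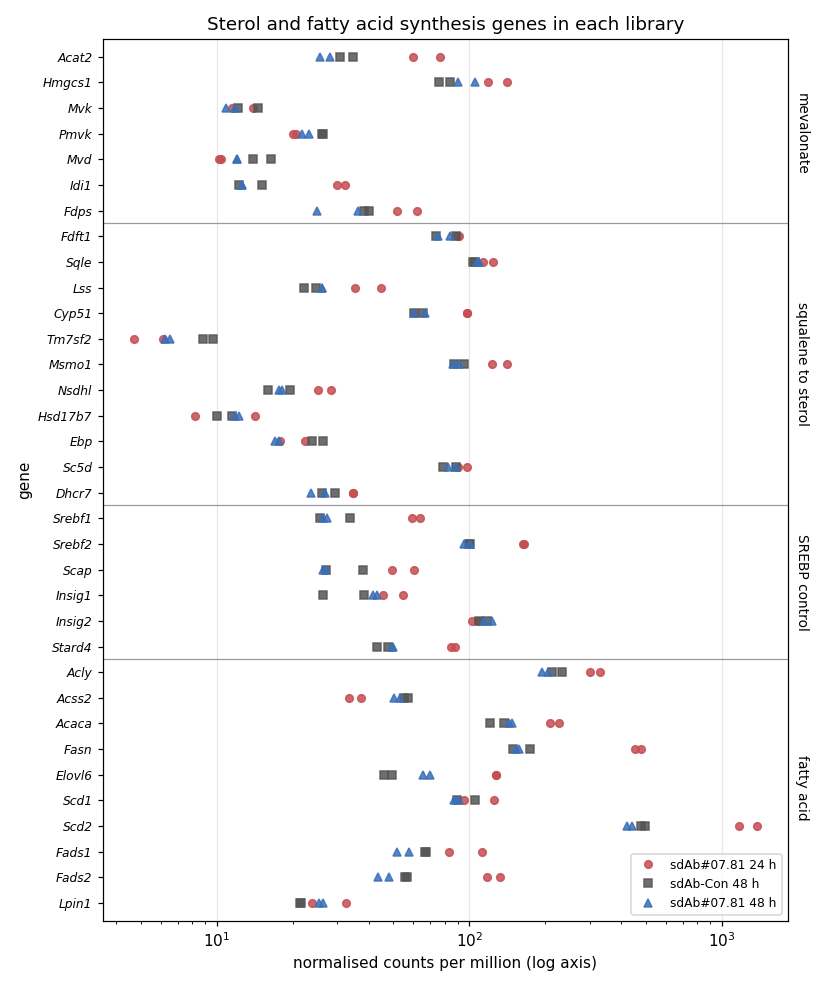
Normalised CPM (log axis) of each of the 34 genes in the 6 libraries, grouped by role, with 1 point per library. For *Fasn*, *Scd2*, *Fads2*, *Idi1* and *Srebf1* the sdAb#07.81 (24 h) points stand to the right of all 48 h points, and the points of both antibodies at 48 h lie close together.

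In the sterol part, 5 of 11 genes fell between 24 h and 48 h of sdAb#07.81 and none rose, against 22.1% lower and 21.1% higher of all tested genes. The falls were smaller than those of *Acat2* or *Idi1* and ranged from -0.46 to -0.62 on the log2 scale. *Lss*, which closes the sterol rings, was at 35.1 and 44.8 CPM at 24 h, 24.6 and 22.2 in sdAb-Con (48 h), and 26.1 and 26.1 in sdAb#07.81 (48 h), a log2 fold change of -0.60 ± 0.147 over time under sdAb#07.81. *Cyp51*, the lanosterol demethylase, was at 97.6 and 98.1 CPM at 24 h, 65.6 and 60.4 in sdAb-Con (48 h), and 60.6 and 66.9 in sdAb#07.81 (48 h), a log2 fold change of -0.62 ± 0.115. In both genes the 24 h libraries were above all 48 h libraries. *Msmo1* and *Nsdhl*, which remove methyl groups from the sterol, had log2 fold changes of -0.57 ± 0.115 and -0.58 ± 0.155. *Dhcr7*, the last-step reductase, had a log2 fold change of -0.46 ± 0.139 (limma adjusted p = 0.012), and -0.37 without the second sdAb#07.81 (48 h) library, where it no longer passed. *Lss*, *Cyp51*, *Msmo1* and *Nsdhl* were also lower in sdAb-Con (48 h) relative to sdAb#07.81 (24 h), with -0.76, -0.63, -0.53 and -0.59 on the log2 scale. *Nsdhl* was at -0.45 and not called (adjusted p = 0.0642) without the second sdAb-Con (48 h) library.

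*Fdft1*, the squalene synthase, and *Sqle*, the oxygen-adding enzyme that is a known control point of the pathway, did not pass the test in any comparison. *Sqle* was at 125 and 113 CPM at 24 h, 105 and 104 in sdAb-Con (48 h), and 109 and 107 in sdAb#07.81 (48 h). Its 24 h libraries were the highest, but the log2 fold change from 24 h to 48 h of sdAb#07.81 was -0.13, with a 95% interval of -0.36 to 0.09. The interval for *Fdft1* was -0.44 to 0.06 and that for *Sc5d*, a sterol desaturase, was -0.38 to 0.10. *Hsd17b7*, a sterol ketone reductase, differed between the 24 h libraries themselves, with 14.2 CPM in the first and 8.20 in the second, and the 48 h libraries lay between them. *Tm7sf2*, a sterol reductase, was at 6.15 and 4.71 CPM at 24 h, 8.86 and 9.64 in sdAb-Con (48 h), and 6.22 and 6.52 in sdAb#07.81 (48 h). At 24 h *Tm7sf2* was the least expressed of the 34 per kilobase of its longest transcript. It rose in sdAb-Con (48 h) relative to sdAb#07.81 (24 h) (log2 fold change 0.77 ± 0.214, limma adjusted p = 0.0054). Without the second 24 h library this value was 0.58 and missed the threshold (adjusted p = 0.0535).

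The SREBP genes themselves were among those that fell. *Srebf1*, which encodes the SREBP form most tied to fatty acid synthesis, was at 59.1 and 63.9 CPM at 24 h, 25.6 and 33.7 in sdAb-Con (48 h), and 26.4 and 27.2 in sdAb#07.81 (48 h). Its log2 fold change was -1.20 ± 0.142 over time under sdAb#07.81 (limma adjusted p = 2e-06) and -1.07 ± 0.139 in sdAb-Con (48 h) against sdAb#07.81 (24 h). *Srebf2*, the form most tied to sterol synthesis, was at 163 and 165 CPM at 24 h, 100 and 99.4 in sdAb-Con (48 h), and 101 and 95.6 in sdAb#07.81 (48 h). All 48 h libraries of *Srebf2* lay within a few CPM of each other and below both 24 h libraries (log2 fold change -0.74 ± 0.106). *Scap*, the escort of SREBP to the Golgi, was at 60.3 and 49.6 CPM at 24 h, 27.2 and 38.0 in sdAb-Con (48 h), and 27.0 and 26.3 in sdAb#07.81 (48 h), a log2 fold change of -1.04 ± 0.157. *Stard4*, a sterol carrier listed with this group, was at 84.8 and 88.0 CPM at 24 h, 43.2 and 47.8 in sdAb-Con (48 h), and 49.98 and 49.3 in sdAb#07.81 (48 h), a log2 fold change of -0.80 ± 0.117.

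The retention factors *Insig1* and *Insig2* did not pass the test over time under sdAb#07.81, and whether they differed from the SREBP genes was not tested. *Insig2* was at 108 and 102 CPM at 24 h and 114 and 123 in sdAb#07.81 (48 h), with a log2 fold change of 0.17 and a 95% interval of -0.06 to 0.40. *Insig1*, itself a known SREBP target, was at 45.7 and 54.6 CPM at 24 h, 38.2 and 26.3 in sdAb-Con (48 h), and 43.2 and 41.6 in sdAb#07.81 (48 h). The sdAb-Con libraries were the lowest and differed from each other more than those of the other groups. *Insig1* was lower in sdAb-Con (48 h) relative to sdAb#07.81 (24 h) (log2 fold change -0.65 ± 0.156, limma adjusted p = 0.0018), and without the second sdAb-Con library the value was -0.38 and not called. Over time under sdAb#07.81 it was -0.23, with a 95% interval of -0.55 to 0.08.

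**Figure D3:**
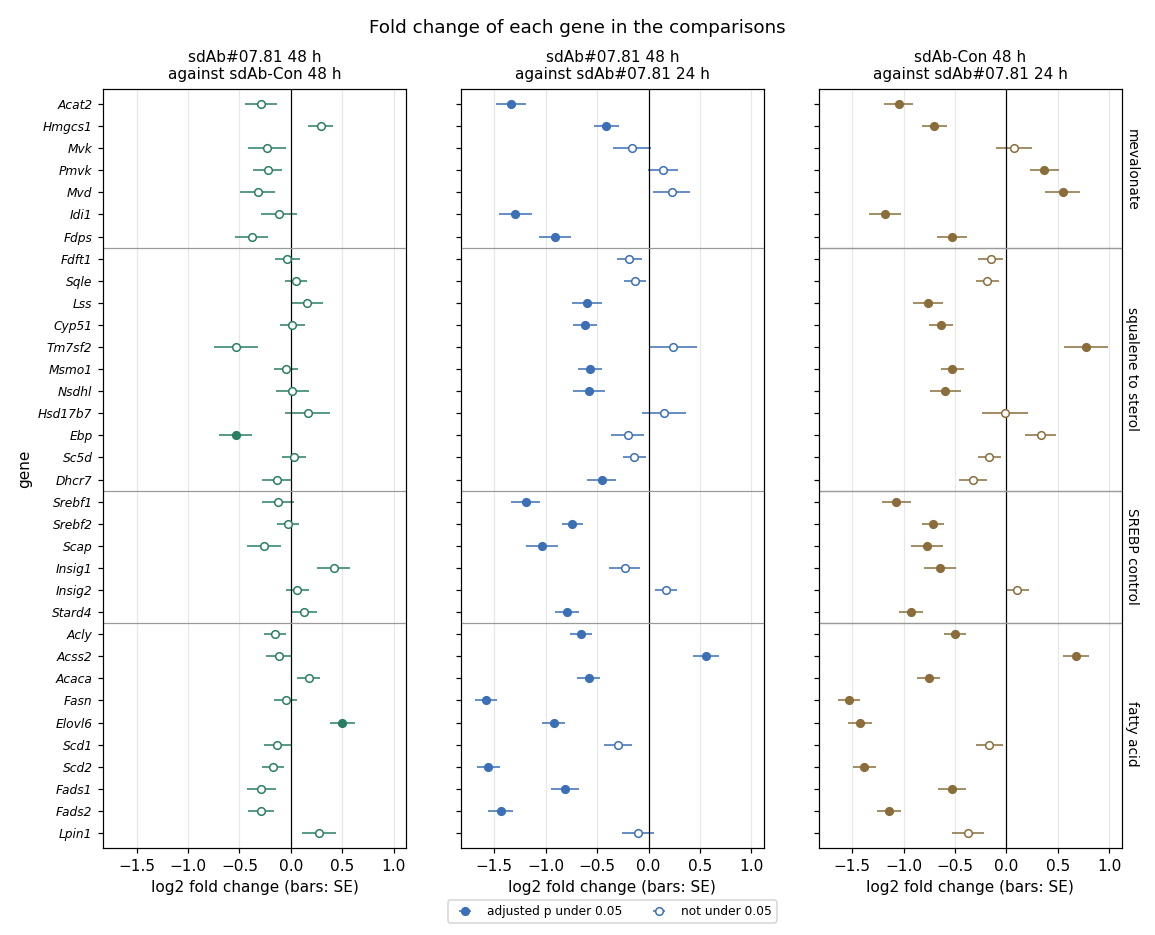
Log2 fold change (x, bars are SE) of each of the 34 genes in the comparisons, grouped by role, with filled points at an adjusted p under 0.05 and open points otherwise. In the comparison between antibodies at 48 h the filled points are *Elovl6* and *Ebp*, while over time under sdAb#07.81 there are 20 filled points left of 0 and 1, *Acss2*, to its right.

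The fatty acid genes held the largest falls. *Fasn* (ENSMUSG00000025153, listed on chromosome 11 from 120696672 to 120715373 with no build named), the fatty acid synthase, was at 453 and 479 CPM in sdAb#07.81 (24 h), 149 and 174 in sdAb-Con (48 h), and 158 and 153 in sdAb#07.81 (48 h). The groups at 48 h overlapped, and both were far below the 24 h libraries. Its log2 fold change over time under sdAb#07.81 was -1.58 ± 0.11 (limma adjusted p = 2.1e-09), so that 33.4% of the 24 h level was left, and it was -1.53 ± 0.11 in sdAb-Con (48 h) against sdAb#07.81 (24 h). *Scd2* (ENSMUSG00000025203, chromosome 19, 44282113 to 44295303), a stearoyl-CoA desaturase, was at 1176 and 1376 CPM at 24 h, 479 and 497 in sdAb-Con (48 h), and 443 and 421 in sdAb#07.81 (48 h). Per kilobase of its longest transcript it was the most expressed of the 34 genes at 24 h (234 CPM per kilobase), and its log2 fold change over time was -1.56 ± 0.11 (limma adjusted p = 2.7e-09). *Scd1*, its neighbour on chromosome 19, was at 95.3 and 126 CPM at 24 h, 106 and 89.9 in sdAb-Con (48 h), and 91.2 and 86.7 in sdAb#07.81 (48 h), and the sdAb-Con libraries overlapped those at 24 h. The log2 fold change of *Scd1* over time was -0.30, with a 95% interval of -0.57 to -0.02 and an adjusted p of 0.075 (limma). Over the alternative fits it ranged from -0.50, without the first 24 h library, to -0.10. The interval for *Scd2*, -1.79 to -1.33, did not reach that of *Scd1*, but the difference between these genes was not itself tested.

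*Fads2* and *Fads1*, the front-end desaturases of polyunsaturated fatty acids, fell by 1.44 and 0.82 on the log2 scale over time under sdAb#07.81. *Fads2* was at 118 and 132 CPM at 24 h, 55.8 and 56.7 in sdAb-Con (48 h), and 48.2 and 43.6 in sdAb#07.81 (48 h), and *Fads1* was at 83.1 and 112 CPM, 67.2 and 66.6, and 51.8 and 57.9. For both genes all 48 h libraries were below the 24 h libraries. *Acly*, which makes cytosolic acetyl-CoA from citrate, was at 302 and 329 CPM at 24 h, 213 and 233 in sdAb-Con (48 h), and 206 and 194 in sdAb#07.81 (48 h). *Acaca*, the acetyl-CoA carboxylase, was at 209 and 228 CPM at 24 h, 121 and 138 in sdAb-Con (48 h), and 147 and 144 in sdAb#07.81 (48 h). Their log2 fold changes over time were -0.66 ± 0.107 and -0.58 ± 0.11, and both passed the test.

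*Acss2* moved the other way. It makes acetyl-CoA from acetate, and it was at 33.3 and 37.1 CPM in sdAb#07.81 (24 h), 55.4 and 57.2 in sdAb-Con (48 h), and 53.2 and 50.5 in sdAb#07.81 (48 h). Every 48 h library was above both 24 h libraries, and the log2 fold change over time under sdAb#07.81 was 0.56 ± 0.126 (limma adjusted p = 0.0014). In sdAb-Con (48 h) against sdAb#07.81 (24 h) it was 0.68 ± 0.125. *Lpin1*, a phosphatidate phosphatase of glycerolipid synthesis, was at 23.9 and 32.6 CPM at 24 h, 21.5 and 21.4 in sdAb-Con (48 h), and 26.4 and 25.4 in sdAb#07.81 (48 h). The sdAb#07.81 (48 h) libraries lay inside the range of the 24 h libraries and the sdAb-Con libraries below it. *Lpin1* in sdAb-Con (48 h) against sdAb#07.81 (24 h) was at -0.37 ± 0.158 (limma adjusted p = 0.055), and was called with upper quartile scaling (-0.45) and on log2(CPM + 0.5) (-0.37). Over the alternative fits it ranged from -0.61, without the first 24 h library, to -0.16.

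To ask what the antibody against NUPR1 changed at a fixed time, sdAb#07.81 (48 h) was compared with sdAb-Con (48 h). Only *Elovl6* and *Ebp* passed the test in that comparison, and each missed it under several other settings. *Elovl6* (ENSMUSG00000041220, chromosome 3, 129326004 to 129432144), which elongates palmitate, was at 128 and 128 CPM in sdAb#07.81 (24 h), 49.4 and 46.1 in sdAb-Con (48 h), and 69.8 and 65.4 in sdAb#07.81 (48 h). Its libraries formed separate steps, with sdAb#07.81 (48 h) above sdAb-Con (48 h) by 0.50 ± 0.119 on the log2 scale (limma adjusted p = 0.012) and below sdAb#07.81 (24 h) by a log2 fold change of -0.92 ± 0.111. *Ebp* (ENSMUSG00000031168, chromosome X, 8051568 to 8059751), a sterol isomerase, was at 17.8 and 22.3 CPM at 24 h, 26.3 and 23.8 in sdAb-Con (48 h), and 16.9 and 17.6 in sdAb#07.81 (48 h), which was lower than sdAb-Con by a log2 fold change of -0.54 ± 0.159 (limma adjusted p = 0.037).

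Fold changes between the antibodies at 48 h followed transcript length over all genes, with a Spearman correlation of 0.448 across 13789 genes, which are not independent replicates. The shortest 10% of genes had a median of -0.27 on the log2 scale and the longest 10% had 0.32. The same correlation was 0.38 between the sdAb#07.81 (48 h) libraries themselves, -0.082 between the sdAb-Con (48 h) libraries and -0.077 between the sdAb#07.81 (24 h) libraries. It was -0.127 over time under sdAb#07.81 and -0.326 for sdAb-Con (48 h) against sdAb#07.81 (24 h). With GC content the correlation was -0.307 between the antibodies, 0.015 over time under sdAb#07.81 and 0.172 for sdAb-Con (48 h) against sdAb#07.81 (24 h). Between the libraries of a group it was -0.306 for sdAb-Con (48 h), -0.035 for sdAb#07.81 (48 h) and 0.075 for sdAb#07.81 (24 h). *Elovl6*, with a longest transcript of 5951 bases, and *Ebp*, with 1743 bases, differed in the direction of the median of genes of their length, whereas *Fasn*, with 10050 bases and -0.05 on the log2 scale, and *Scd2*, with 5455 bases and -0.18, did not. With the relation to length, GC content and mean level removed, *Elovl6* was at 0.30 (limma adjusted p = 0.131) and *Ebp* at -0.34 (limma adjusted p = 0.228). None of the 34 genes then passed, whereas over time under sdAb#07.81 20 fell and 1 rose as before. Which of these relations made the values shift was not tested. Without single libraries the sizes of *Elovl6* and *Ebp* stayed close to those of the full fit. *Elovl6* was at 0.55, 0.45 and 0.45 without the first sdAb-Con (48 h), the second sdAb-Con (48 h) or the first sdAb#07.81 (48 h) library, and missed the threshold at adjusted p = 0.066, 0.118 and 0.208. *Ebp* was at -0.47 to -0.61 without any one of the 48 h libraries and missed it each time.

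**Figure D4:**
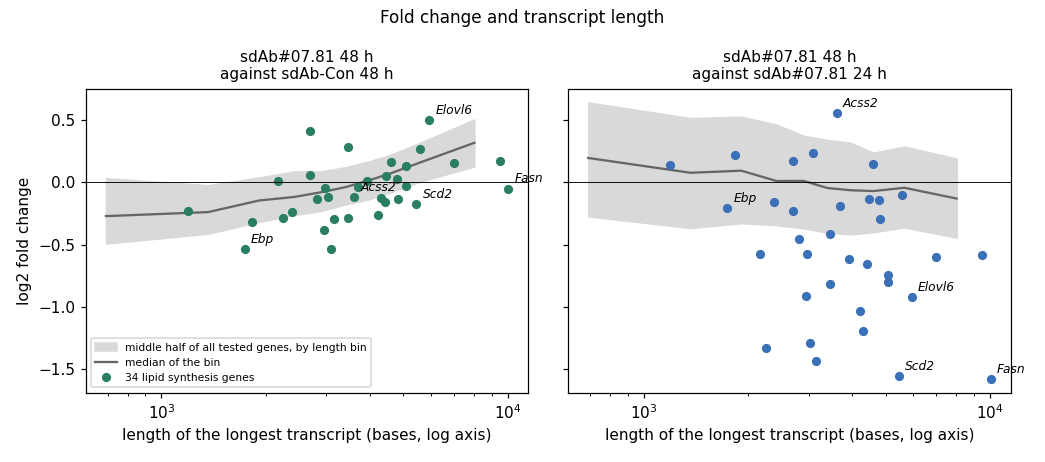
Log2 fold change (y) against length of the longest transcript (x, log axis) for the 34 lipid synthesis genes (points) and all tested genes (grey line, median of each 10% of genes by length; grey band, their middle 50%), for the antibodies at 48 h (left) and over time under sdAb#07.81 (right). On the left the grey median climbs from -0.27 to 0.32, *Elovl6* lies above it and *Ebp* below it, and *Fasn* (-0.05) and *Scd2* (-0.18), with long transcripts, lie below it, while on the right many points lie below the band.

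For the other genes the 95% interval between the antibodies is given from the fit without removal of the length relation. It was -0.28 to 0.18 for *Fasn*, -0.40 to 0.05 for *Scd2*, -0.45 to 0.19 for *Srebf1* and -0.25 to 0.20 for *Srebf2*. None of these intervals reached the log2 fold changes of the same genes between 24 h and 48 h. With the relation to length, GC content and mean level removed, *Fasn* was at -0.23 (SE 0.0975) in place of -0.05. *Scd2*, *Srebf1* and *Srebf2* were then at -0.21, -0.06 and -0.0012. The intervals of 5 genes that missed the threshold lay on 1 side of 0. They were 0.03 to 0.55 for *Hmgcs1* (adjusted p = 0.143, limma) and 0.08 to 0.75 for *Insig1* (adjusted p = 0.101), with sdAb#07.81 higher. With sdAb#07.81 lower, they were -0.98 to -0.09 for *Tm7sf2* (adjusted p = 0.11, limma), -0.72 to -0.05 for *Fdps* (adjusted p = 0.133) and -0.56 to -0.03 for *Fads2* (adjusted p = 0.139). *Insig1* was called, with sdAb#07.81 higher, when the 24 h libraries were left out (0.42, adjusted p = 0.044). That difference rested on 1 library, since it was 0.15 (adjusted p = 0.677) without the second sdAb-Con (48 h) library and 0.69 without the first. *Fdps* was called, with sdAb#07.81 lower, without the second sdAb#07.81 (48 h) library (-0.65, adjusted p = 0.0287), but was at -0.12 (adjusted p = 0.866) without the first.

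Some of these counts may hold reads of other genes. The counting was not stated to use strand, and the listed intervals of *Fdft1*, *Cyp51*, *Srebf1* and *Acss2* overlap those of *Ctsb*, *Akap9*, *Rai1* and *Gss* on the opposite strand, while that of *Tm7sf2* overlaps that of *Vps51* on the same strand. How reads shared by similar genes such as *Scd1* and *Scd2* were counted was not given in the sources used here.

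Genes of neighbouring lipid pathways were counted in lists that leave out the 34. Of 12 tested genes of sterol uptake and trafficking, 7 rose and none fell over time under sdAb#07.81, with a median log2 fold change of 0.35, against 21.1% higher, 22.1% lower and a median of -0.01 for all tested genes. *Lipa*, the lysosomal acid lipase that frees cholesterol from its esters, was at 32.2 and 37.3 CPM at 24 h, 83.0 and 75.8 in sdAb-Con (48 h), and 76.4 and 79.5 in sdAb#07.81 (48 h), a log2 fold change of 1.17 ± 0.126. Of 14 tested genes of fatty acid oxidation, 8 rose and none fell over time under sdAb#07.81 (median 0.47), against the same shares of all genes. In sdAb-Con (48 h) against sdAb#07.81 (24 h) 12 of the 14 rose and none fell (median 0.57), while 25.3% of all tested genes rose and 26% fell. In that comparison the shortest 10% of all genes had a median of 0.44 and the longest 10% had -0.45. The part of transcript length in the counts of these lists was not tested there. *Acaa2*, the last enzyme of the mitochondrial oxidation cycle, was at 44.1 and 45.4 CPM at 24 h, 109 and 94.4 in sdAb-Con (48 h), and 76.7 and 88.8 in sdAb#07.81 (48 h), a log2 fold change of 0.88 ± 0.126. All 48 h libraries of *Lipa* and *Acaa2* were above both 24 h libraries.

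The remaining lists held calls in both directions or few calls over time under sdAb#07.81, and are to be read against the 21.1% higher and 22.1% lower of all tested genes. Of 18 tested genes of other fatty acid synthesis, elongation and desaturation, 4 rose and 3 fell, with *Acacb*, the mitochondrial carboxylase that restrains fatty acid oxidation, at 1.45 ± 0.201 and *Acsl5*, an acyl-CoA synthetase, at -0.84 ± 0.111 on the log2 scale. Of 14 genes of glycerolipid synthesis and storage, 3 rose and 2 fell, with *Pnpla2*, the lipase of lipid droplets, at 1.04 ± 0.117 and *Agpat2*, an acyltransferase, at -0.37 ± 0.144. Of 12 genes of SREBP processing and sterol sensing, 4 rose and 2 fell, with *Sec23a*, a coat protein of the vesicles that leave the endoplasmic reticulum, at 1.25 ± 0.11 and *Mbtps1*, the protease that first cuts SREBP, at -0.67 ± 0.117. *Mbtps1* was at 261 and 319 CPM at 24 h, 170 and 186 in sdAb-Con (48 h), and 191 and 173 in sdAb#07.81 (48 h). Of 16 genes of the later isoprenoid branches, 2 rose and 3 fell, with *Dhdds*, of dolichol synthesis, at 0.62 ± 0.128 and *Pdss1*, of ubiquinone synthesis, at -1.64 ± 0.196. Of 7 tested LXR targets and sterol exporters, 1 rose, *Abca7*, at 0.53 ± 0.133, and none fell.

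Between the antibodies at 48 h, these lists held no gene that rose and 4 of 93 that were lower, each in a different list, while 6.39% of all tested genes were higher and 3.7% were lower. They were *Coq3* (-0.50), *Hacd2* (-0.50), *Plin2* (-0.43) and *Acadvl* (-0.39). With the relation to length, GC content and mean level removed, *Hacd2* (-0.55) was the 1 gene called of the 93 tested in these lists. *Coq3* kept its size at -0.50 (adjusted p = 0.0651), while *Plin2* was at -0.21 and *Acadvl* at -0.19. *Plin2*, the coat protein of lipid droplets, was at 267 and 232 CPM in sdAb-Con (48 h) and at 165 and 206 in sdAb#07.81 (48 h). In sdAb-Con (48 h) against sdAb#07.81 (24 h), where 25.3% of all tested genes rose and 26% fell, 6 of the 12 genes of uptake and trafficking rose and none fell. Of the 18 genes of other fatty acid synthesis 8 rose and 5 fell, and of the 14 of glycerolipids 6 rose and 1 fell. Of the 12 genes of SREBP processing 5 rose and 4 fell, of the 16 of the isoprenoid branches 4 rose and 3 fell, and of the 7 LXR targets and exporters 2 rose and 1 fell.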

How the data were processed

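RNA of 4T1 cells was sequenced as paired reads on an Illumina NovaSeq. The submitters' processing notes name cutadapt 1.9.1, HISAT2 2.0.1 and HTSeq 0.6.1, and list GRCh38.p14, a human build, although the gene identifiers in the tables are those of mouse. The tables name no build, and coordinates are given as listed there. The files deposited by the authors are 2 tables, which compare sdAb#07.81 (48 h) with sdAb-Con (48 h) and with sdAb#07.81 (24 h). The only measurement used from them is the mean signal, that is, the mean over 4 libraries of counts divided by size factors, deposited with 15 significant digits. The authors' own fold changes, standard errors, statistics, p-values and adjusted p-values are in the tables too and were not used.

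Each mean is a sum of whole counts, each worth a fixed step for its library, so the counts were recovered from both tables together by a lattice search. A unique solution was found for 28687 of 28712 genes. For the rest, 17 had more than 1 solution and 8 had none, and these genes, with 5.89% of the reads, were left out. Size factors rebuilt from the recovered counts differed from those read from the steps by at most 0.031%. In 8481 genes with low counts recovered separately in each table, the same pair of libraries had equal counts in both tables, whereas any other pair agreed in at most 45.3%. That pair was taken as sdAb#07.81 (48 h), the only group in both tables, and the other pair of each table as the other group it names. Replicate numbers could not be assigned.

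The recovered counts were scaled by median-of-ratios size factors and tested with limma 3.58.1 (voom, R 4.3.3) over all 6 libraries with group as the only term, in genes with a mean of at least 10 counts per library, two-sided, with Benjamini-Hochberg adjustment over all 13951 tested genes and a threshold of 0.05. In data simulated for sdAb#07.81 (48 h) against sdAb#07.81 (24 h) over 13961 genes, 162 of 200 genes changed by a fold of 2 were called. Of 200 genes changed by a fold of 1.5, 72 were called. The simulation gave every gene the same dispersion and no relation to length, and left 13763 genes unchanged. These shares therefore need not hold for the real comparisons. Transcript length and GC content came from GENCODE M21. To remove their relation, the deviation of each gene from its mean was fitted in each library with polynomials of degree 3. These were in log length, GC content and the mean level of the gene, and the fitted part was subtracted. All other steps used Python 3.11.15. The genes, the lists and the alternatives were chosen with earlier results of these data known. All members are named, and from each other list the called gene with the largest change in a direction, with a mean of at least 50 counts per library.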

Additional observations from a re-analysis of the deposited data

How the results depend on the processing

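The 34 genes were tested again with other scaling (total counts, upper quartile), without a filter or with a mean of at least 100 counts. They were also tested on log2(CPM + 1) and log2(CPM + 0.5), with only the 4 libraries compared and with a fold of at least 1.5 required. Further settings removed the relation to length, GC content and mean level, or left out each library in turn. Between the antibodies at 48 h, the 2 calls became 1 with upper quartile scaling and 0 without a filter, with the relation to length removed or with the fold required, and ranged from 0 to 3 without 1 library, with 0 without either sdAb-Con (48 h) library or without the first sdAb#07.81 (48 h) library. Over time under sdAb#07.81 the 21 calls ranged from 19 to 21 without 1 library, and were 15 with the fold required. For sdAb-Con (48 h) against sdAb#07.81 (24 h) the 24 calls ranged from 20 to 25 without 1 library, and were 18 with the fold required. Over the 14 refitted alternatives, 19 of the 21 calls over time under sdAb#07.81 kept their direction and passed in each one, the exceptions being *Hmgcs1* and *Dhcr7*. For sdAb-Con (48 h) against sdAb#07.81 (24 h) 18 of 24 did, the exceptions being *Pmvk*, *Mvd*, *Tm7sf2*, *Nsdhl*, *Insig1* and *Fads1*, and between the antibodies neither call did. The 1 called value that changed sign was that of *Pmvk* in sdAb-Con (48 h) against sdAb#07.81 (24 h). It was -0.0312 with the relation to length, GC content and mean level removed (limma adjusted p = 0.848). The calls over all genes between the antibodies were 891 higher and 516 lower, and 217 higher and 114 lower with that relation removed. They were 195 and 24 without the first sdAb#07.81 (48 h) library, and 353 and 57 or 247 and 144 without the first or second sdAb-Con (48 h) library. They were 408 and 146 without a filter, and more with only the 4 libraries compared (1256 and 869) or without the first (1239 and 875) or second (1257 and 883) sdAb#07.81 (24 h) library. No paired analysis was possible because the recovered libraries carry no replicate numbers. With 2 libraries per group, genes that missed the threshold cannot be called unchanged.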
